A study of Mus musculus with 10 samples.

Results

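Mouse spermatogonial stem cell cultures at week 3 were compared with cultures at week 1, which gives the net change over 2 weeks of culture. The comparison rests on 4 of the 10 RNA-seq libraries of the study, 2 at each week. Cells of every group came from DBA/2 mice. Testis cells of adult animals, enriched on magnetic beads for the surface protein CD9, were grown in an Iscove's-based medium that held human FGF2, rat GDNF and fetal bovine serum, and were labelled as spermatogonial stem cells at 0, 1, 2 and 3 weeks of culture. GS cells, the established long-term cultures of such cells, formed the fifth group, also of DBA/2 origin and grown in that medium. The week 2 libraries and those of GS cells are given beside the compared weeks where they help to place a value. The sources used here do not say whether feeder cells were used. No label ties the 2 libraries of a group to separate animals or cultures, so the spread behind each p-value may be technical. Of the 21969 genes in the table, 13454 had an FPKM (fragments scaled by transcript length and by library size) of 1 or more in at least 2 of the 4 libraries and were tested. Among these, 1367 genes reached that level in exactly 2 libraries, and 709 genes that reached it in 1 library lay just outside.

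Spermatogonial stem cells renew themselves and give rise to sperm. GDNF, bound by GFRA1 and the receptor kinase RET, and FGF2 drive their self-renewal in culture and switch on transcription factors such as Etv5, Bcl6b, Lhx1 and T. Cells that leave the stem cell state become progenitors with Neurog3 and Sox3, and then differentiating spermatogonia with Kit, Stra8 and Sohlh1. Cultures started from testis can also hold somatic cells such as Sertoli, Leydig, peritubular myoid and stromal cells.

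Depth, read from the steps between low FPKM values, in units of 1e6 reads, was 16.68 and 15.92 at week 1 and 14.53 and 18.87 at week 3. The 2 libraries of a week correlated at r = 0.9837 (week 1) and 0.9894 (week 3) across the genes tested, which are not independent replicates. The FPKM sum was 727209 and 707638 at week 1 and 587015 and 593734 at week 3, so part of each difference depends on the scale. Germ cell identity was checked on Ddx4 and Dazl, RNA-binding proteins of the germ line, which stood at FPKM 70.6 to 155.8 and 288.6 to 581.3 in the 4 libraries. The week 3 libraries differed from each other in stromal genes. Week 3 replicate 2 exceeded replicate 1 in all 25 fibroblast and matrix genes, with a median difference of 0.72 on the log2(FPKM + 1) scale. It also did so in 20 of 21 acute phase genes (median 0.61). Among all genes called lower at week 3, as described below, replicate 2 was above in 61.2% (median 0.061). Among those called higher it was above in 44.6% (median -0.022). The tilt was not confined to stromal genes, with 24 of 28 oxidative phosphorylation genes above in replicate 2 (median 0.14).

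Most genes changed between weeks 1 and 3. By limma on log2(FPKM + 1), 4947 genes were higher at week 3 (36.8% of those tested) and 4478 were lower (33.3%) at a Benjamini-Hochberg adjusted p under 0.05. At 2-fold or more, falls outnumbered rises, with 2670 genes lower (19.8%) and 1486 higher (11.0%). The median log2 fold change of all genes was 0.085. Rescaling the libraries to a common FPKM sum moved it to 0.338 and raised the share of rises among called genes from 52.5% to 64.1%, and quantile normalization moved them to 0.239 and 60.3%. Of the 9425 called genes, 2 had week 3 values that overlapped those of week 1. Over all genes tested, 2220 overlapped. Both week 3 values lay above those of week 1 in 5974 tested genes, 4946 of them called. They lay below in 5260 tested genes, 4477 of them called. Lack of overlap was thus common without a call too, and it adds little to a call. Genes at FPKM 1 or more in both libraries of a single week had to differ between the weeks: 898 passed the filter through week 1 alone and 883 of them were called lower, while 355 passed through week 3 alone and 319 were called higher. The list counts below hold such genes, and their number is given where it is large.

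**Figure D1:**
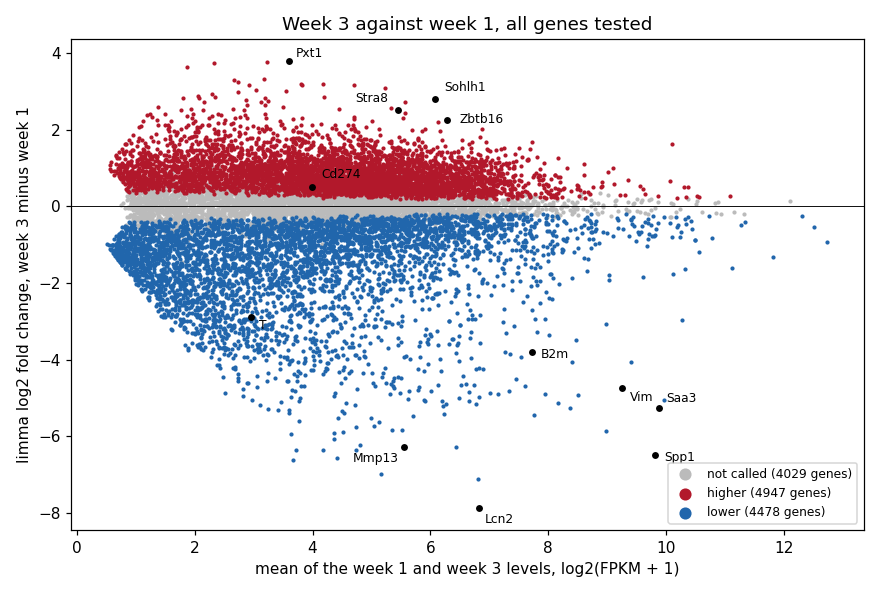
The limma log2 fold change of each tested gene (vertical axis, week 3 minus week 1) against its mean level in the 4 libraries (horizontal axis, log2(FPKM + 1)), with 4947 genes higher in red, 4478 lower in blue and 4029 not called in grey. The falls reach further than the rises, down to Lcn2 at -7.87, against 3.79 for Pxt1 at the top.

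Secreted inflammatory and matrix proteins led the falls. Lcn2, an iron-trapping acute phase protein, stood at FPKM 1760 and 1690 at week 1 and at 5.49 and 7.42 at week 3, which was 267 times lower by the means (log2 fold change -7.87, SE 0.165, limma adjusted p = 2.25e-08). Spp1 (osteopontin), with FPKM 8590 and 8099 at week 1 the nuclear gene of highest level there, was at 66.1 and 128 at week 3 (-6.49, SE 0.254, adjusted p = 1.9e-07). Both weeks were far apart in each of these genes, and week 3 replicate 1 held the lower value of the 4 libraries. The interleukin gene Il6 went from 372 and 339 to 0.366 and 4.75, so that its week 3 libraries differed from each other by more than 10-fold while both lay far below week 1 (-6.99, adjusted p = 4.48e-06). The list of the 12 largest falls also held Mgp, an inhibitor of calcification in matrix, the growth factors Lif and Ereg, the protease Mcpt8, the sperm protamine Prm2, the prostaglandin synthase Ptgs2, the chemokine Cxcl1, the collagenase Mmp13 and Thbd (thrombomodulin), with log2 fold changes of -7.13 to -6.23. Lif and Prm2 passed the filter through week 1 alone.

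The 12 largest rises were smaller. Pxt1, a peroxisomal protein of the testis, went from FPKM 3.31 and 1.28 to 51.1 and 35.3 (log2 fold change 3.79, SE 0.29, limma adjusted p = 5.5e-06). Sox3, a transcription factor of spermatogonial progenitors on chromosome X (60891366 to 60893430, minus strand, GRCm38), stood at 8.26 and 7.04 and then at 82.4 and 71.7 (3.17, SE 0.109, adjusted p = 1.13e-07). Erg, an ETS transcription factor, was at 4.67 and 5.24 and then at 54.0 and 53.2, an increase of 10.8 times. Week 2 lay in between for both, with means of 30.4 for Sox3 and 22.2 for Erg. The others were Nkx1-1 (a homeobox factor), Irf8 (an interferon regulatory factor), Mycl (a MYC family member), Nos1ap, Ly6g6e, Lbhd2, Adcy10 (the soluble adenylyl cyclase that sperm use), Gm20458 and AC140267.1. Gm20458 was listed at 0 in both week 1 libraries and at 17.0 and 7.55 at week 3. Both Gm20458 and Nkx1-1 passed the filter through week 3 alone. AC140267.1 lost its call without week 1 replicate 1 (adjusted p = 0.0816) or without week 3 replicate 2 (0.0541).

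Genes of fibroblasts and extracellular matrix fell throughout the list. All 25 were called lower, with a median log2 fold change of -3.81 and a range of -5.13 to -2.03, against a median of 0.085 over all genes. Vim, the intermediate filament vimentin, stood at FPKM 3185 and 3003 at week 1 and at 83.1 and 155.7 at week 3 (-4.75, SE 0.246, limma adjusted p = 6.63e-07). S100a4, a calcium-binding protein of stromal cells, went from 1800 and 1601 to 40.3 and 55.9, and Bgn (biglycan) from 1922 and 1884 to 37.4 and 99.5. The weeks did not overlap in these, which held for nearly all called genes and for most genes tested. The list as a whole summed to FPKM 14220 and 14000 at week 1 and to 561.6 and 1130 at week 3, and none of its members was at 0. Its median was -3.26 without week 3 replicate 1 and -4.42 without week 3 replicate 2, and all 25 genes were called lower either way. In bulk RNA, fewer cells of a type and less RNA per cell cannot be told apart.

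Matrix metalloproteinases, which cut collagens and other matrix proteins, fell together with their inhibitors. Of 19 genes tested 17 were lower and 0 higher (median -3.49), 4 of the 19 passed the filter through week 1 alone, while 7 further entries lay below the filter and 1 had no row. Mmp13, a collagenase, stood at FPKM 408 and 403 at week 1 and at 2.89 and 6.06 at week 3, 90.6 times lower (log2 fold change -6.28, SE 0.235, limma adjusted p = 1.68e-07). The inhibitor Timp1 went from 3800 and 3544 to 40.7 and 95.3, so that both sides of the balance between protease and inhibitor were lower. Mmp9 and Mmp17 were not called (-0.37 and -0.35).

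Part of the family lies in a cluster on chromosome 9, where all 5 tested genes were lower: Mmp13 and Mmp3 (-4.89), Mmp10 (-4.06), Mmp1b (-1.97) and Mmp12 (-0.94). Mmp1b passed the filter through week 1 alone, so that it had to be lower. Mmp12 lost its call without week 1 replicate 2 (limma adjusted p = 0.11) and without week 3 replicate 1 (0.171, log2 fold change -0.39), and under quantile normalization (0.0862) and a common FPKM sum (0.0709), whereas Mmp13 fell by 6.28. Their promoters were searched on both strands for TGANTCA, the binding motif of the factor AP-1, among other motifs, which stood in 0 of the 5. The AP-1 motif stood in 4 of the 5 promoters and in 7.9% of all 27025 promoters in the RefSeq table (GRCm38.p6, 250 bases before to 50 after the start). It stood 35 bases before the start in Mmp13 (chr9:7272264-7272563, plus strand), 46 in Mmp3 (chr9:7445572-7445871, plus), 63 in Mmp10 (chr9:7502092-7502391, plus) and 93 in Mmp1b (chr9:7387977-7388276, minus). A match describes letters and not a bound site, and whether AP-1 has a part in the falls of these genes was not tested. The 4 sequences that hold it follow, 5′ to 3′, with the match in capitals.
Mmp13: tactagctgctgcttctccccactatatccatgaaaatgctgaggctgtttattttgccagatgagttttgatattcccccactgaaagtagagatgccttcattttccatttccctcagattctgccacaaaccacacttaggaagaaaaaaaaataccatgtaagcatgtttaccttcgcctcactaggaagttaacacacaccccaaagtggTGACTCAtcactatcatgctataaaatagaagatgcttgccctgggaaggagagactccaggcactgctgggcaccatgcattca
Mmp3: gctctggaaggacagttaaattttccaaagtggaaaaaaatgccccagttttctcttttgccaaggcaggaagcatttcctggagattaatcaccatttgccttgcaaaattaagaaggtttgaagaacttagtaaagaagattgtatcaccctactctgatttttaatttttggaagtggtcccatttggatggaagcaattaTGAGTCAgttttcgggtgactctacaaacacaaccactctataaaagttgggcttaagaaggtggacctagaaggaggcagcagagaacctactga
Mmp10: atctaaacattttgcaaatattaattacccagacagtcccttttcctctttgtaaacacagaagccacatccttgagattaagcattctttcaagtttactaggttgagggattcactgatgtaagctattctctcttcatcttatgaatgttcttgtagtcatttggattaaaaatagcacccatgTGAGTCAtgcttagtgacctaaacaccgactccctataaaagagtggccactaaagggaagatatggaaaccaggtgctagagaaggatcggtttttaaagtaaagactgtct
Mmp1b: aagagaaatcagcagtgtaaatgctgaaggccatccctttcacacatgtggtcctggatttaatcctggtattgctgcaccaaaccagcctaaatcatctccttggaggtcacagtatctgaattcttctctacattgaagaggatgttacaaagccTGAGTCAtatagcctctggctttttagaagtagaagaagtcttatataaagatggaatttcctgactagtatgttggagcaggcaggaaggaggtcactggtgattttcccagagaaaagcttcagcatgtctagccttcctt

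Acute phase and inflammatory genes had a median as low as the CXCL cluster described next. All 21 tested were lower (median -5.14, range -7.87 to -1.35), 5 of them above the filter at week 1 alone, and 6 further entries lay below the filter. Saa3, a serum amyloid, stood at FPKM 6029 and 5436 at week 1 and at 113.5 and 193.9 at week 3 (log2 fold change -5.26, SE 0.206, limma adjusted p = 1.9e-07). Hp (haptoglobin), which binds free haemoglobin, went from 440 and 436.3 to 7.09 and 17.6. The list held 2.63% and 2.53% of the FPKM sum at week 1 and 0.0387% and 0.071% at week 3. Chemokines, which attract leukocytes, were lower in 21 of 25 and higher in 1 (median -2.59), and 10 of the 25 passed the filter through week 1 alone. Ccl2, which attracts monocytes, went from 1445 and 1367 to 23.2 and 41.4. Ccl25 was the exception, at 8.82 and 11.5 and then at 16.2 in both libraries (0.64, adjusted p = 0.00318).

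Neighbouring genes fell together in further clusters, described here by their counts. In the CXCL cluster of chromosome 5, which encodes attractants of neutrophils, 6 of 6 tested genes were lower (median -5.11), from Cxcl1 at -6.28 to Pf4 at -2.67. Of these 6, 3 passed the filter through week 1 alone, so that they had to be lower. In the S100a cluster of chromosome 3, 10 of 10 were lower (median -3.83), among them S100a6 at FPKM 5878 and 5347 and then at 127 and 224. Both tested Serpinb genes were lower, Serpinb2 by 5.20 and Serpinb8 by 1.19 on the log2 scale, while 6 further entries lay below the filter and 1 had no row.

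Markers of the other somatic testis cells were mostly lower as well. Of 17 Sertoli cell genes 15 were lower and 0 higher (median -2.17), 8 of the 17 passed the filter through week 1 alone, while 7 further entries lay below the filter, with Rhox8, Fshr and Cst9 at 0 in both week 3 libraries. Gdnf, the stem cell growth factor that Sertoli cells make, stood at FPKM 14.3 and 15.0 at week 1 and at 0.178 and 0.183 at week 3 (-3.73, SE 0.122, limma adjusted p = 9.81e-08). Gdnf was among those 8, so that it had to be lower. Sox9, a transcription factor of Sertoli cells, went from 28.4 and 28.3 to 2.168 and 1.67. Wt1, another one, was not called (-0.06, SE 0.137), with 9.29 and 8.89 as the means of the weeks. The summed level of the list was 1894 and 1873 at week 1 and 229.7 and 290.0 at week 3. Smooth muscle and peritubular myoid genes were lower in 11 of 13 and higher in 0 (median -3.13), and their sum went from 2248 and 2197 to 109.6 and 187.8. Tagln, an actin-binding protein, was at 684 and 640 and then at 8.60 and 49.9, the gene of the list in which the week 3 libraries lay furthest apart. Of 6 Leydig cell genes tested 5 were lower, led by the steroid enzyme gene Cyp11a1 (-3.32), with 8 entries below the filter, among them the hormone gene Insl3.

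Blood and vessel markers gave few tested genes. Of 12 macrophage genes 2 were higher and 3 lower, of 9 endothelial genes 2 and 6, and of 4 lymphocyte genes 2 and 2. Each of the 3 counts of higher genes dropped to 1 without a library, week 3 replicate 2 for macrophages, week 3 replicate 1 for lymphocytes, and week 3 replicate 1 or week 1 replicate 2 for endothelium. Summed levels at weeks 1 and 3 lay between 93.0 and 141.7 FPKM for macrophages, 74.5 and 103.2 for endothelium and 12.4 and 18.4 for lymphocytes. Cd4 and Ms4a1 were at 0 in both week 3 libraries. Among macrophage genes, Cd14 and Fcer1g fell by 2.71 and 1.35, while Spi1 and Ctss rose by 1.21 and 0.83. Spi1 passed the filter through week 3 alone, so that it had to be higher. Adgre1, a macrophage surface protein, was called lower (-1.07, limma adjusted p = 0.0278), but not without week 3 replicate 1 (-0.52), without week 1 replicate 1 (-0.73), under quantile normalization (-0.68) or on a common FPKM sum (-0.90). Erg, of the largest rises, is on the endothelial list and made up 54.0 and 53.2 of its sum at week 3.

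**Figure D2:**
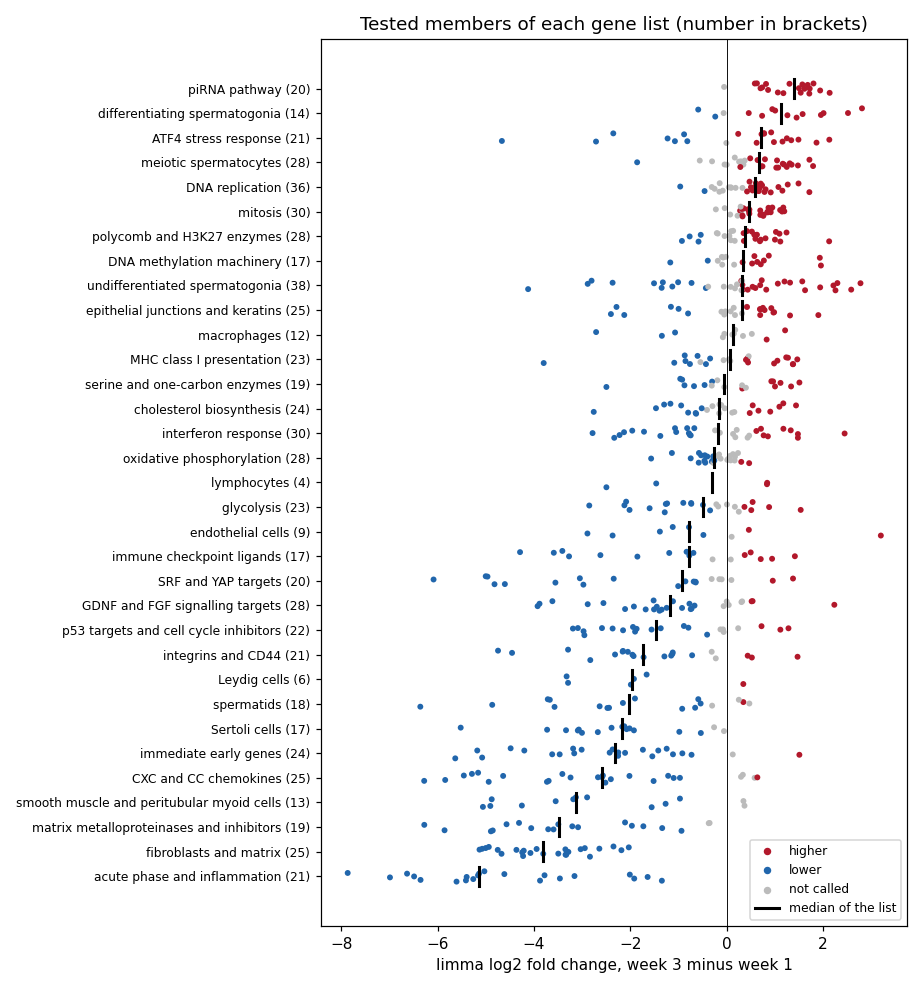
Limma log2 fold change (horizontal axis, week 3 minus week 1) of each tested gene in the lists other than gene clusters and erythroid cells, ordered by median from the piRNA pathway (1.40) to acute phase genes (-5.14). Points are genes, red where higher, blue where lower and grey where not called, and the bar is the median of the list.

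Immediate early genes, which cells switch on within minutes of a growth factor or stress signal, were lower in 22 of 24 and higher in 1 (median -2.31). Subunits of the AP-1 factor were among them. Fos stood at FPKM 256.5 and 232.7 at week 1 and at 20.6 and 17.4 at week 3 (log2 fold change -3.62, SE 0.121, limma adjusted p = 1.01e-07). Jun went from 97.5 and 99.4 to 4.05 and 4.79, Junb from 268.4 and 283.9 to 23.1 and 25.01, and Fosb from 238 and 254 to 3.91 and 4.03. The week 3 libraries lay close together in these genes, and Jund, at 0.13, was not called. Egr4, a zinc finger factor, moved the other way, from 35.3 and 40.6 to 120 and 99.7 (1.51, adjusted p = 5.38e-06). Targets of SRF and YAP, factors that respond to actin tension and cell spreading, were lower in 14 of 20 and higher in 2 (median -0.93). Cyr61 and Ctgf, secreted matricellular proteins, fell by 6.08 and 4.97, while the gene of SRF itself was higher by 0.96.

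Targets of GDNF and FGF signalling fell in 20 of 28 and rose in 3 (median log2 fold change -1.18). Spry2, a feedback inhibitor of FGF signalling, stood at FPKM 82.6 and 79.2 at week 1 and at 4.12 and 5 at week 3 (-3.89, SE 0.128, limma adjusted p = 9.81e-08). The cyclin gene Ccnd1 went from 212 and 226 to 12.7 and 14.3, and Dusp4, a phosphatase that switches off ERK kinases, from 90.8 and 99.4 to 6.01 and 7.72. The ETS factors Etv5 and Etv4 were not called (0.32 with SE 0.142, and 0.00 with SE 0.175). Mycn, a MYC family factor, rose from 14.9 and 12.8 to 73.8 and 63.9 (2.23, SE 0.128, adjusted p = 1.07e-06). GFRA1 and RET, the receptor parts, differed little: Gfra1 was at 37.2 and 37.0 and then at 26.4 and 28.1 (-0.43, adjusted p = 0.00858), and Ret at 48.3 and 52.5 and then at 65.3 and 59.6 (0.30, adjusted p = 0.0173). Gfra1 lost its call on a common FPKM sum (-0.16, adjusted p = 0.23), and Ret lost its own without week 1 replicate 1 (adjusted p = 0.0896) or week 3 replicate 1 (0.104).

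Genes of undifferentiated spermatogonia moved in both directions. Of 38 genes 20 were higher and 11 lower (median 0.32), which is 52.6% and 28.9% against 36.8% and 33.3% over all genes. Lower members were thus no more frequent than among all genes, and the split described next was drawn after the values were seen. Some of the lower genes are factors that mark the most primitive cells or answer to GDNF. T (Brachyury), a GDNF-responsive T-box factor, stood at FPKM 21.5 and 18.9 at week 1 and at 2.06 and 1.68 at week 3 (-2.88, SE 0.223, limma adjusted p = 5.85e-06). Shisa6, a membrane protein of early spermatogonia, went from 6.91 and 7.36 to 0.201 and 0.128, and passed the filter through week 1 alone, so that it had to be lower. Bcl6b, a repressor needed for self-renewal, was at 60.8 and 78.9 and then at 24.9 and 22.6, and Lhx1 at 34.8 and 34.1 and then at 12.7 and 13.1. Eomes and Foxc2, transcription factors of rare stem cells, were lower by 1.01 and 1.32. Pax7, another such factor, was higher, from 0.434 and 0.371 to 1.53 and 1.125 (0.73, adjusted p = 0.0012), and passed the filter through week 3 alone. Thy1 (-4.12) and Cd9 (-1.13), surface proteins used to enrich stem cells, were lower too, and both are also made by somatic cells.

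The higher genes included Neurog3, a factor of progenitors, beside genes that are not particular to progenitors. Zbtb16 (PLZF), a repressor that maintains spermatogonia, stood at FPKM 31.5 and 37.97 at week 1 and at 176.4 and 162.4 at week 3 (log2 fold change 2.26, SE 0.112, limma adjusted p = 5.18e-07). Nanos3, an RNA-binding protein, went from 31.4 and 31.9 to 147.4 and 153.7. Neurog3, a factor that marks progenitors about to differentiate, was at 0.113 and 0 at week 1 and at 6.04 and 4.68 at week 3 (2.58, adjusted p = 2.18e-05). It passed the filter through week 3 alone, so that it had to be higher. Rhox10, which promotes the making of stem cells, and Utf1, a chromatin factor, were higher by 2.78 and 2.3. The germ line genes Ddx4 and Dazl rose less, by 1.06 and 0.82. Id4 and Nanos2, genes of the most primitive cells, were called higher by 0.33 and 0.34. Both lost their calls without either week 1 library (adjusted p = 0.0727 to 0.106) and without week 3 replicate 1 (0.2 and 0.101), and Nanos2 also without week 3 replicate 2 (0.11).

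**Figure D3:**
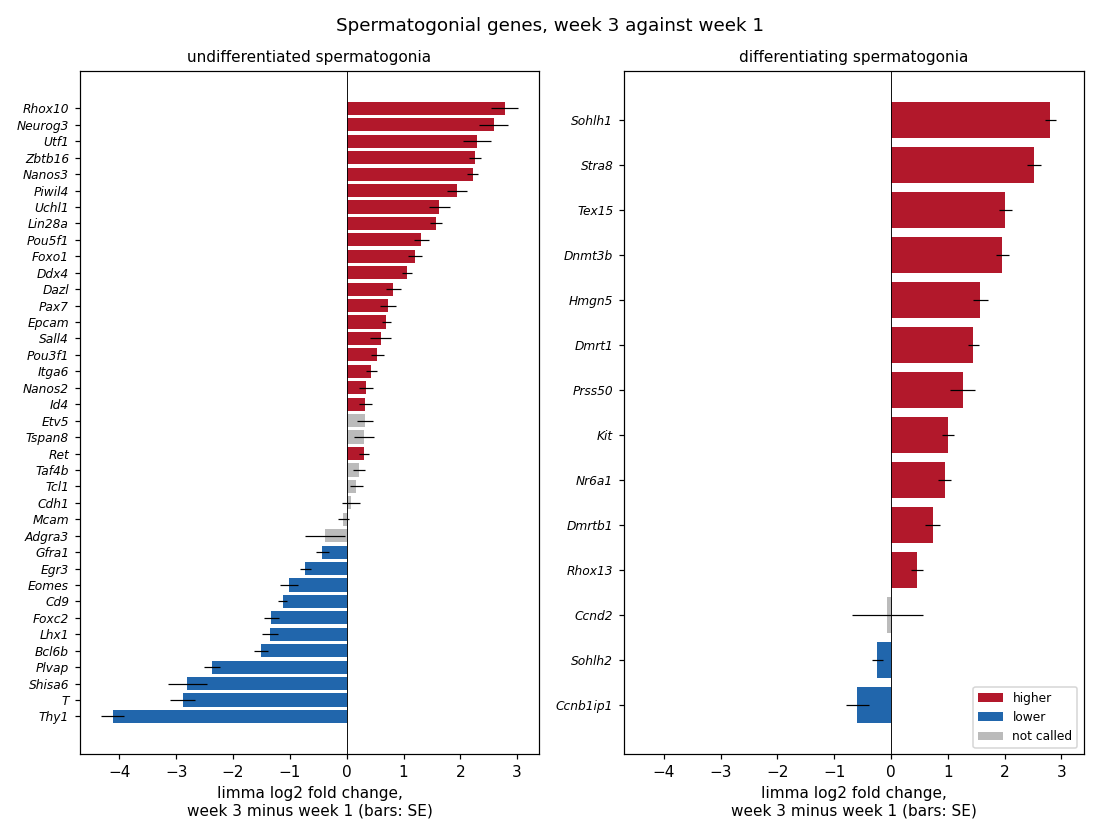
Limma log2 fold changes (horizontal axis, week 3 minus week 1, bars to the SE) of the 38 genes of undifferentiated spermatogonia and the 14 of differentiating spermatogonia. The first list runs from Thy1 at -4.12 to Rhox10 at 2.78, and the second from Ccnb1ip1 at -0.59 to Sohlh1 at 2.81, with red for higher, blue for lower and grey for not called.

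Genes of differentiating spermatogonia were higher in 11 of 14 and lower in 2 (median log2 fold change 1.13). Sohlh1, a helix-loop-helix factor of early differentiation, stood at FPKM 22.7 and 26.6 at week 1 and at 175 and 181 at week 3, 7.23 times as high (2.81, SE 0.105, limma adjusted p = 1.67e-07). Stra8, which retinoic acid switches on before meiosis, went from 18.3 and 16.2 to 102 and 105 (2.52, SE 0.131, adjusted p = 6.79e-07). Kit, the receptor of differentiating spermatogonia, was at 9.70 and 8.91 and then at 20.5 and 18.9. The week 3 libraries lay close together in these genes. Sohlh2, the partner of Sohlh1, was called lower by 0.24 (adjusted p = 0.0434), but turned to 0.04 on a common FPKM sum and lost its call without week 1 replicate 1 or either week 3 library, and on a common median. Ccnb1ip1, the other lower gene, lost its call without the same libraries and under each of the rescalings.

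Of 28 meiotic genes 17 were higher and 1 was lower (median 0.68). Prdm9, which sets the sites of recombination, was at FPKM 0.942 and 1.58 and then at 6.56 and 6.17 (log2 fold change 1.72, SE 0.185, limma adjusted p = 4.37e-05). Stag3, a cohesin of meiotic chromosomes, went from 90.7 and 101.4 to 255.6 and 236.4. Sycp1, a core protein of the synaptonemal complex, was not called (0.35). The exception was Pgk2, a sperm form of phosphoglycerate kinase, which fell from 2.94 and 2.82 to 0.145 and 0 and passed the filter through week 1 alone. In the piRNA pathway, which silences transposons in the germ line, 19 of 20 genes were higher and 0 lower (median 1.40). Piwil2, a piRNA-binding Argonaute protein, was at 58.2 and 62.6 and then at 219 and 207 (1.80, SE 0.0718, adjusted p = 2.03e-07), and Pld6, a nuclease of piRNA biogenesis, at 3.94 and 4.61 and then at 21.9 and 22.4. The summed level of the pathway went from 810.5 and 800.5 to 2066 and 1980.

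Spermatid genes were lower in 14 of 18 and higher in 1 (median -2.03), with 10 entries below the filter. Because 10 of the 18 passed the filter through week 1 alone, their falls were fixed by it, and 9 were lower where a mean FPKM of 5 was required. Prm2, which packs sperm DNA, stood at FPKM 119 and 110 at week 1, at 0.983 and 0 at week 3 and at 0 in the libraries of week 2 and GS cells. Smcp, a protein of the sperm mitochondrial sheath, went from 31.7 and 28.4 to 0.127 and 0. The list summed to 36020 and 37940 in the libraries of week 0, and from 350.1 and 319.0 at week 1 it went to 58.3 and 60.3. Izumo1, called higher by 0.35, lost its call without each of the 4 libraries in turn (adjusted p = 0.0737 to 0.169). The germ cell results stand beside the falls of the fibroblast, Sertoli and smooth muscle lists given above, and the part of those cells in them was not tested.

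Genes of DNA replication were higher in 24 of 36 and lower in 2 (median 0.58). Orc1, a subunit of the origin recognition complex, stood at FPKM 25.2 and 17.3 at week 1 and at 83.6 and 60.2 at week 3 (log2 fold change 1.72, SE 0.236, limma adjusted p = 0.000196). The helicase subunit gene Mcm2 went from 95.1 and 120.5 to 263.1 and 195.0. Rrm2 and Tyms, enzymes that supply deoxynucleotides, went down instead, Rrm2 from 36.3 and 31.6 to 15.6 and 18.2 (-0.96, adjusted p = 0.000212). Tyms fell by 0.46 and lost its call on a common FPKM sum (-0.18, adjusted p = 0.142). Pcna, the sliding clamp of the polymerases, was not called (-0.15, SE 0.0709).

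Of 30 mitosis genes 24 were higher and 0 lower (median 0.47). Plk1, a kinase that drives entry into mitosis, was at FPKM 12.8 and 12.6 and then at 30.7 and 28.2 (log2 fold change 1.15, SE 0.101, limma adjusted p = 1.29e-05). Cenpf, a kinetochore protein, went from 61.2 and 51.0 to 124 and 131. Mki67, the gene of the proliferation marker Ki-67, was not called (0.07, SE 0.106), with 29.7 and 33.7 and then 32.4 and 34.2. Promoters of these genes were also searched on both strands for CCAAT, the letters that the factor NF-Y recognises. That choice was made after the values were seen. A RefSeq promoter was matched for 26 of the 30 genes, and 19 of the 26 (73.1%) held CCAAT, against 37.9% of all promoters in the table. Of the 1486 genes called higher by 2-fold or more, 1199 had a matched promoter, and 39.0% of those held CCAAT, close to the share of all promoters. Whether the letters have a part in the rises was not tested. The AP-1 motif, the E2F motifs TTTCCCGC and TTTGGCGC, and CArG were searched as well and stood in 0 of the 26. Anln and Aurkb, also among the largest rises of the list, gave no match, for lack of a promoter or of the letters. Plk1 (chr7:122159185-122159484, plus strand, CCAAT 14 bases before the start) and Cenpf (chr1:189688037-189688336, minus strand, 132 and 71 bases before) are shown as examples with a match, with the letters in capitals.
Plk1: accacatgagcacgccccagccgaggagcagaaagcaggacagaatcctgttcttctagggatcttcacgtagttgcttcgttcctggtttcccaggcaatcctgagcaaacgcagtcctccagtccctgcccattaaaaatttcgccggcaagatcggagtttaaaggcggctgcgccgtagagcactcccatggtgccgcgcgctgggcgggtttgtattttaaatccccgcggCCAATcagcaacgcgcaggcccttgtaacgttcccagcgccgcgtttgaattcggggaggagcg
Cenpf: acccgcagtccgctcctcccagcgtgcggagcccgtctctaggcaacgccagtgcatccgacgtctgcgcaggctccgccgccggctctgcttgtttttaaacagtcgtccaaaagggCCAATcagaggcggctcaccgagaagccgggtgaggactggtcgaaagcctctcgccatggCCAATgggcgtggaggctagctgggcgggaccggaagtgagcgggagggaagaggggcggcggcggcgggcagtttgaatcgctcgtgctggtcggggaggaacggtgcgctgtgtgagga

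Targets of p53 and inhibitors of the cell cycle were lower in 15 of 22 and higher in 3 (median log2 fold change -1.46). Cdkn1a, the inhibitor p21, stood at FPKM 267 and 259 at week 1 and at 25.9 and 34.7 at week 3 (-3.09, SE 0.124, limma adjusted p = 2.12e-07). Ccng1, another target of p53, went from 189 and 173 to 16.8 and 21.3. Cdkn1c, the imprinted inhibitor p57, rose from 11.8 and 11.7 to 34.4 and 26.2 (1.28, adjusted p = 7.81e-05), and Sesn1 and Sesn2, stress-induced regulators of growth, rose by 1.11 and 0.72.

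Metabolic lists were mixed. Glycolysis genes were lower in 13 of 23 and higher in 5 (median -0.49), with the higher count at 2 without week 1 replicate 1, 3 without week 3 replicate 1 and 8 on a common FPKM sum. Pgk1, the phosphoglycerate kinase of most cells, went from FPKM 123 and 119 to 12.8 and 19.5 (log2 fold change -2.85, SE 0.176, limma adjusted p = 1.63e-06), and Ldha, a lactate dehydrogenase, from 281 and 273 to 60.1 and 68.9. Pdk1, a kinase that restrains entry of pyruvate into mitochondria, rose from 55.2 and 64.4 to 179 and 171. Oxidative phosphorylation genes were lower in 14 of 28 and higher in 2 (median -0.27), but 8 lower and 10 higher on a common FPKM sum and 10 and 11 under quantile normalization, so the direction of this list depended on the scale. Ndufa1, a subunit of complex I, had the largest fall there, from 190 and 149 to 55.9 and 56.2. Cholesterol genes were higher in 7 and lower in 9 of 24 (29.2% and 37.5%), near the 36.8% and 33.3% over all genes, with Srebf2, the regulator of the pathway, higher by 1.17 and Ebp, an isomerase of the pathway, lower by 2.76.

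Genes that ATF4 switches on when amino acids run short were higher in 13 of 21 and lower in 7 (median 0.72). Trib3, a pseudokinase of this response, stood at FPKM 6.68 and 4.71 at week 1 and at 26.4 and 29.7 at week 3 (log2 fold change 2.13, SE 0.189, limma adjusted p = 1.35e-05). The asparagine synthetase gene Asns went from 68.5 and 48.5 to 120.7 and 139.8, and Chac1, which degrades glutathione, from 14.8 and 14.1 to 26.8 and 32.4. Week 2 did not lie between these weeks: it had 3.08 and 3.46 for Trib3, 39.98 and 36.7 for Asns and 1.17 and 1.45 for Chac1. Psat1, an enzyme of serine synthesis, had the same order, with 78.8 and 76.1 before, 58.1 and 47.2 in the week 2 libraries and 162 and 176 after. Nupr1, Cebpb and Atf5, also on the list and known from other stress responses as well, fell by 4.67, 2.71 and 2.35, and the gene Atf4 itself was not called (-0.01). Among enzymes of serine and one-carbon metabolism 7 of 19 were higher and 7 lower (36.8% each, against 36.8% and 33.3% over all genes), or 4 lower on a common FPKM sum, with Shmt1 higher by 1.51 and Sardh lower by 2.50.

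The title of the series concerns PD-L1, a surface ligand that restrains T cells, in spermatogonial stem cells that renew themselves. Cd274, which encodes it (chromosome 19, 29367455 to 29388095, plus strand, GRCm38, ENSMUSG00000016496.7), stood at FPKM 12.3 and 12.5 at week 1 and at 18.0 and 17.9 at week 3, 1.45 times as high (log2 fold change 0.50, SE 0.103, limma adjusted p = 0.00212). The call held in every rescaling (0.60 to 0.76) and without each library (0.49 to 0.51). Its neighbour Pdcd1lg2, which encodes PD-L2, stayed under FPKM 1 in all 4 libraries and was not tested. Among 17 ligands of immune checkpoints 5 were higher and 10 lower (median -0.78). Pvr, a ligand of TIGIT, went from 55.0 and 62.3 to 1.60 and 2.56 (-4.29, adjusted p = 3e-07), and Cd47, the signal that restrains phagocytes, from 81.6 and 88.0 to 12.6 and 13.3. Cd276 (B7-H3) rose from 29.2 and 27.4 to 56.6 and 54.0.

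Genes of MHC class I presentation were higher in 10 of 23 and lower in 8 (median 0.07), which is 43.5% and 34.8% against 36.8% and 33.3% over all genes. On a common FPKM sum 13 were higher and 4 lower, and 5 were lower without week 1 replicate 1 or either week 3 library. B2m, the light chain without which class I molecules do not reach the surface, stood at FPKM 807 and 759 at week 1 and at 49.3 and 62.2 at week 3, 14.1 times lower (log2 fold change -3.80, SE 0.112, limma adjusted p = 6.28e-08). Parts of the peptide loading path went up: Tapbp (tapasin) from 108 and 106 to 274 and 285, and the immunoproteasome subunit Psmb10 from 79.1 and 71.4 to 200 and 219. Of the heavy chains, H2-K1 was not called (0.05, SE 0.105) and H2-D1 was called lower (-0.34), but at 0.03 under quantile normalization (adjusted p = 0.802) and -0.06 on a common FPKM sum (0.619), and without week 1 replicate 2 or either week 3 library it lost its call too (0.0532 to 0.11). H2 levels are uncertain, because near-identical members share reads and the strain's alleles differ from the reference.

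Interferon response genes moved in both directions, with 9 of 30 higher and 14 lower (median -0.19). These shares, 30.0% and 46.7%, stand against 36.8% and 33.3% over all genes. Of the 30, 6 passed the filter through week 1 alone, Tmem173 and Irf7 among them. Gbp3, a guanylate-binding protein, went from FPKM 19.5 and 19.4 to 108 and 114 (log2 fold change 2.45, SE 0.177, limma adjusted p = 3.98e-06), and Gbp2 from 28.9 and 25.4 to 77.0 and 77.4. The sensor gene Ddx58 (RIG-I) went from 8.72 and 10.5 to 1.09 and 1.10, and Tmem173 (STING) from 8.64 and 7.56 to 0.196 and 0.454. Irf7, a factor that drives type I interferon, was at 5.25 and 4.63 and then at 0.142 and 0.413. Under quantile normalization 12 were higher and 12 lower.

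Chromatin regulators were more often higher than lower. Of 17 DNA methylation genes 9 were higher and 2 lower (52.9% and 11.8%, median 0.33). Of 28 genes of polycomb complexes and H3K27 enzymes 16 were higher and 4 lower (57.1% and 14.3%, median 0.39). Over all genes the shares were 36.8% and 33.3%, and the median was 0.085. Dnmt3b, which methylates DNA anew, went from FPKM 10.2 and 11.5 to 47.7 and 42.4 (log2 fold change 1.96, SE 0.113, limma adjusted p = 1.12e-06), and Tet3, which oxidises methylated cytosine, from 5.56 and 6.20 to 26.5 and 24.0. Tet2 moved against them, from 3.30 and 3.59 to 1.27 and 0.715. Cbx2, a polycomb protein that compacts chromatin, was at 10.4 and 12.1 and then at 57.3 and 47.8 (2.13, adjusted p = 1.16e-06).

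Cell adhesion genes were described as 2 lists. Integrins and related surface proteins were lower in 16 of 21 and higher in 3 (median log2 fold change -1.73), and 5 of the 21 passed the filter through week 1 alone. Cd44, the receptor of hyaluronan, led the falls, at FPKM 208 and 216 and then at 5.25 and 9.05. Itga6, a laminin receptor of spermatogonia, was higher by 0.44 (limma adjusted p = 0.00268). Genes of epithelial junctions and keratins were higher in 11 of 25 and lower in 6 (median 0.32), or 44.0% and 24.0% against 36.8% and 33.3% over all genes. Within that list Ovol2, a repressor of mesenchymal genes, went from 1.66 and 1.78 to 8.50 and 9.87, while the keratin genes Krt8, Krt18 and Krt19 fell by 2.29, 2.13 and 2.40.

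Levels at week 2 and in GS cells placed the 2 weeks in the whole series. Summed over the list, fibroblast and matrix genes held 1.96% and 1.98% of the FPKM sum at week 1. Their share was 0.23% and 0.237% by week 2 and 0.0957% and 0.19% by week 3, while GS cells had 0.187% and 0.191%. GDNF and FGF targets did not follow that course: week 1 had 0.218% and 0.227%, week 2 had 0.278% and 0.281%, week 3 had 0.133% and 0.128%, and GS cells had 0.303% and 0.304%. For this list week 3 was therefore the lowest of the cultured groups. DNA replication genes were highest at week 2 (0.491% and 0.503%), above week 1 (0.226% and 0.232%) and week 3 (0.396% and 0.389%). Genes of the piRNA pathway were higher at week 3 (0.352% and 0.333%) than at week 2 (0.227% and 0.231%) or in GS cells (0.28% and 0.29%).

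**Figure D4:**
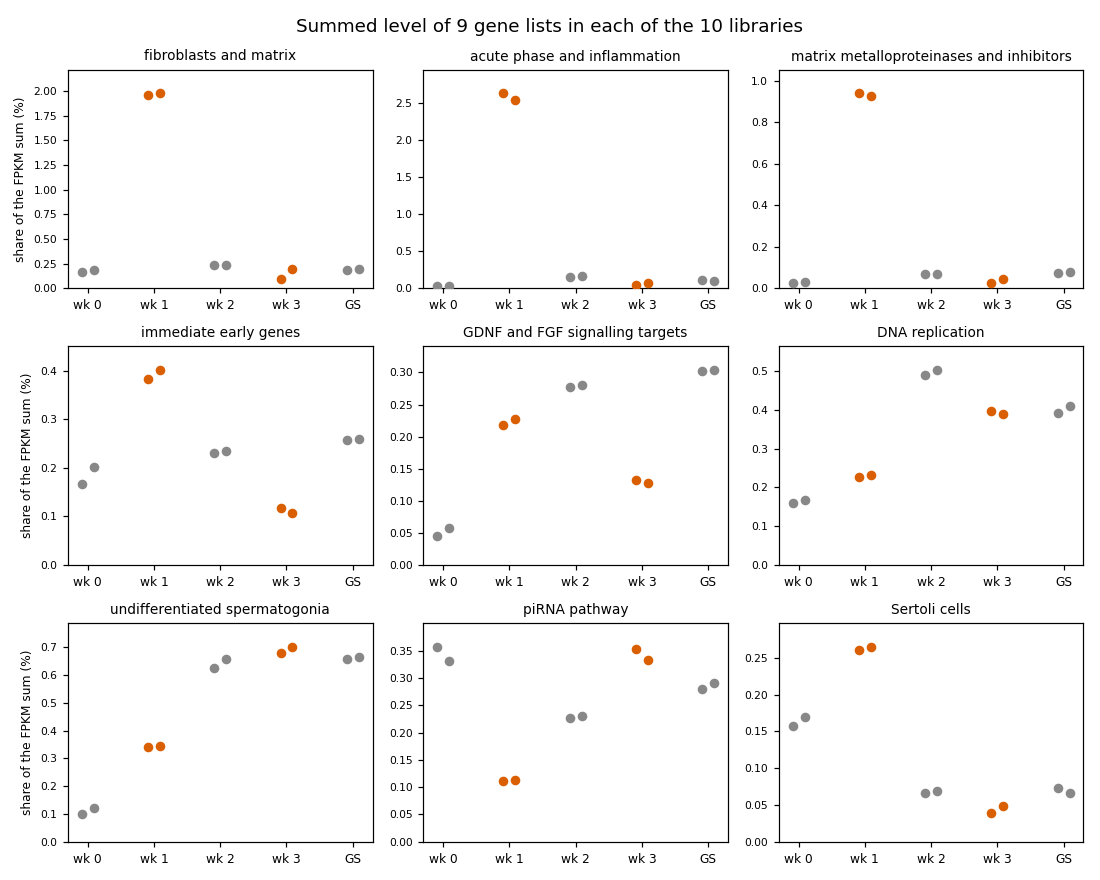
Summed level of 9 gene lists as a percentage of the FPKM sum (vertical axes) in each of the 10 libraries, with orange points for the compared weeks and grey points for week 0, week 2 and GS cells. Fibroblast genes stand at 1.96% and 1.98% only at week 1, whereas the GDNF and FGF targets of week 3 lie below those of week 1, week 2 and GS cells.

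Single genes showed the same range of courses. T stood at FPKM 18.8 and 20.4 at week 2, as at week 1, and at 5.65 and 3.83 in GS cells, above week 3. Lhx1 was at 47.4 and 57.4 at week 2 and at 18.3 and 19.8 in GS cells. Zbtb16 was at 94.6 and 101.5 at week 2 and at 161.2 and 161.0 in GS cells, close to its week 3 level. Neurog3 was at 0.627 and 1.69 at week 2 and at 0.744 and 0.343 in GS cells, so that week 3 held the highest level of the 5 groups. Mycn likewise was at 25.3 in both week 2 libraries and at 25.9 and 25.2 in GS cells, under its week 3 values.

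**Figure D5:**
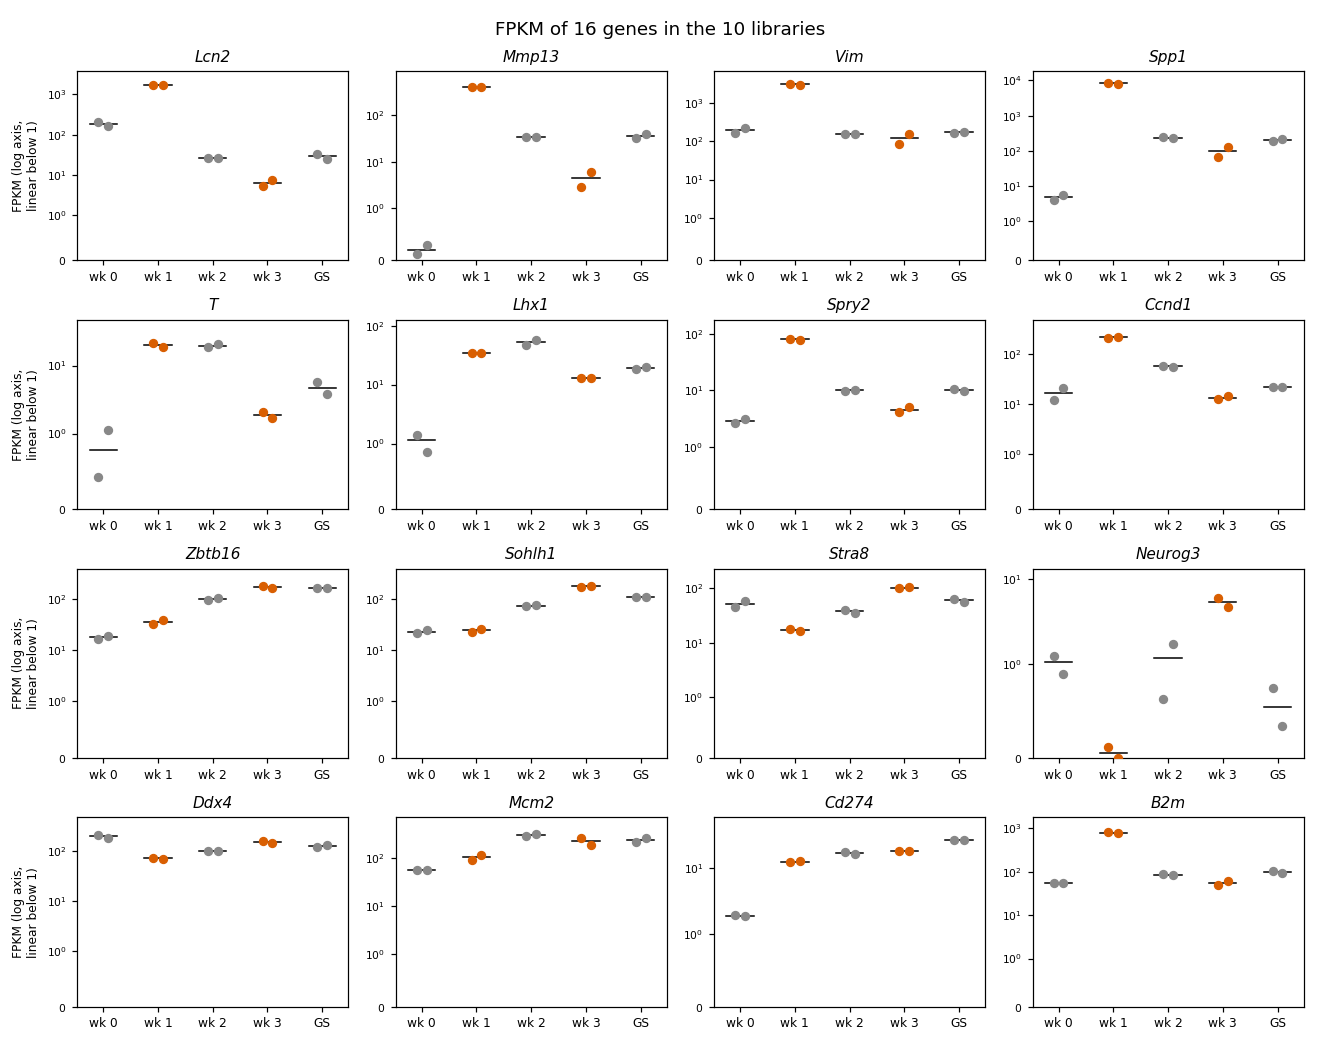
FPKM of 16 genes in the 10 libraries (vertical axes logarithmic above 1 and linear below), with points for libraries, lines for group means and orange for weeks 1 and 3. Lcn2, Mmp13, Vim, Spp1 and B2m are highest at week 1, while Sohlh1, Stra8 and Neurog3 are highest at week 3.

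GS cells were compared with week 2, a pair of groups that shares no library with weeks 1 and 3. Both comparisons come from the same fit and share its spread for each gene, so genes of small spread are more readily called in both. Over all 13454 genes, 1483 were higher in GS cells (11.0%) and 1347 lower (10.0%), with a median of -0.002. Of the 4947 genes called higher from week 1 to week 3, 726 (14.7%) were higher in GS cells than at week 2 and 356 (7.2%) were lower, with a median log2 fold change of 0.053. Of the 4478 called lower, 402 (9.0%) were higher and 627 (14.0%) lower, with a median of -0.066. Of the 4029 not called, 355 (8.8%) were higher and 364 (9.0%) lower, with a median of -0.014. Among the 1486 genes that rose by 2-fold or more, 336 (22.6%) were higher in GS cells and 65 (4.4%) lower. Among the 2670 that fell by 2-fold or more, 222 (8.3%) were higher and 403 (15.1%) lower. Nanos3 and Zbtb16, both higher at week 3, were higher in GS cells than at week 2 by 1.15 and 0.71 (limma adjusted p = 0.000261 and 0.00362). Lhx1 and T, both lower at week 3, were lower in GS cells by 1.41 and 1.86 (0.000682 and 0.00125), whereas Dusp6, a phosphatase of ERK kinases that was also lower at week 3, was higher in GS cells by 1.02 (0.000837).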

How the data were processed

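RNA-seq libraries (poly(A) RNA, Illumina TruSeq Stranded mRNA kit, per the labels' protocols) were analysed from the table of normalized FPKM values that the authors deposited. Listed in the submitters' processing notes, with no role stated, are HISAT2 2.1.0 and Bowtie2 2.3.4.1 (aligners), Cuffdiff and Cufflinks 2.2.1, cutadapt 1.16, bcl2fastq 2.17.1.14 and the build mm10. The sources used here do not name the annotation or the normalization. Because errors in alignment and in sharing reads between gene copies happened before deposit, they carry into every value. Gene identifiers were matched to GENCODE M21 (21951 of 21969), which gave coordinates (1-based, GRCm38).

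Values were taken as log2(FPKM + 1), a pseudocount of 1 that understates changes of low genes, and all 5 groups of 2 libraries were fitted together in limma 3.58.1 (R 4.3.3, empirical Bayes with an intensity trend, 5 residual degrees of freedom). The contrast was week 3 minus week 1, two-sided, with p-values adjusted by Benjamini-Hochberg over 13454 genes and a threshold of 0.05. The procedure was tested on simulated data. Fold changes described as times are ratios of mean FPKM. Reads per library were estimated from the FPKM steps of 2268 genes with a lone transcript of at least 1500 bases, a fragment of 200 bases being assumed. Steps were whole within 0.15 of a read for 95.53% to 98.8% of the low values, but other genes need transcript lengths of the authors' own annotation, so counts were not recovered.

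The comparison, its members and the 39 gene lists (849 entries, 7 without a row and 107 below the filter) were chosen with earlier results of these data known, so lists are described by counts and medians and carry no test. Named were the 12 largest rises and falls without overlap, up to 4 called genes of largest change per list, up to 3 called members moving against their list, Cd274 and Pdcd1lg2; further list members were named after their values were seen. Lists share genes, and a few members are not reported here. RefSeq promoters were matched for 10723 of the tested genes, 27 of 36 DNA replication genes and 13 of 19 metalloproteinase genes, all under 80%, so motif shares over those sets are void. Alternatives covered the pseudocount, the filter, the scaling, the model, a replicate block and each library left out.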

Additional observations from a re-analysis of the deposited data

How the results depend on the processing

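With another pseudocount, filter, scaling or model, 3230 (mean FPKM 5) to 5007 (no filter) genes were lower and 4059 (mean FPKM 5) to 6504 (common FPKM sum) higher, against 4478 and 4947 as reported. Counts moved by over 1.5 times only for genes higher by 2-fold or more, 2355 under quantile normalization and 2607 on a common FPKM sum, against 1486. Without each library of weeks 1 and 3 in turn, where the lone library was assumed to vary like the other groups, 8397 to 8848 genes were called, 4295 to 4624 higher and 4102 to 4224 lower, 1432 to 1624 and 2629 to 2679 of them by 2-fold or more. Replicate numbers did not pair the libraries, since differences between replicates correlated between groups at -0.076 to 0.069, and a replicate block gave 9395 called genes (4932 higher and 4463 lower). Of 557 called list genes, 14 to 31 lost their call under the 3 rescalings and 33 to 42 without a library. Among genes named by rule, only Sohlh2 (0.039) changed direction, on a common FPKM sum. Other list genes that did so included Pkm, Cox7a2 and H2-D1 under quantile normalization and Cox7a2 on a common sum. Small list counts moved most: higher genes among GDNF and FGF targets went from 3 to 6 and chemokines from 1 to 4 on a common sum, and p53 targets from 3 to 5 and SRF and YAP targets from 2 to 4 under quantile normalization. Low genes rest on few reads, and with 2 libraries a group the error of a single gene borrows from all genes.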

Other observations

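Protein-coding genes of the mitochondrial genome were lower in 9 of 12 and higher in 0. The gene mt-Nd2, a subunit of complex I, stood at FPKM 4066 and 3706 at week 1 and at 1238 and 1309 at week 3 (log2 fold change -1.61, limma adjusted p = 3.54e-06). Together these genes held 4.19% and 4.2% of the FPKM sum at week 1 and 2.45% and 2.87% at week 3.

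The chromosomes with the highest and the lowest median among the numbered ones were 17 and 3, beside 36.8% higher and 33.3% lower over all genes. On chromosome 17, 43.4% of 662 tested genes were higher and 26.1% lower (median log2 fold change 0.26), and on chromosome 3, which carries the S100a cluster, 30.5% of 646 were higher and 42.4% lower (median -0.14). Chromosome X had 33.0% higher and 35.5% lower, near the shares over all genes. On that chromosome, 2 of 6 tested Rhox genes were higher, Rhox10 and Rhox13, a share of 33.3%, and 4 of 6 under quantile normalization or on a common FPKM sum.

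A few genes differed widely between the libraries of a week. Sp7, a transcription factor of bone-forming cells, stood at FPKM 2.31 and 23.5 at week 3 and at 0.269 and 0.282 at week 1, and was called higher (2.82, limma adjusted p = 0.00608). Sp7 passed the filter through week 3 alone, so that it had to be higher. Tceanc2 was at 2.39 and 35.0 at week 3 and was not called.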
